A study of Mus musculus with 20 samples.

Results

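Egr1, Egr2 and Egr3 are zinc finger transcription factors of the early growth response family, and they are 3 of the 27916 genes counted in the single-cell tables of this series. They were chosen by name, with earlier results of these data known. Their levels were read in CD8 T cells, with macrophages and melanoma cells of the same libraries beside them. In T cells the Egr genes are switched on within a short time of antigen receptor engagement, through the MAP kinase cascade acting on serum response factor and its Elk partners and through calcium and NFAT. Egr1 is known as a fast and general response gene, whereas Egr2 and Egr3 are known for restraining activated T cells and for their part in anergy. The proteins bind GC-rich DNA and are held in check by the co-repressors Nab1 and Nab2.

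The series asks what the absence of Tet2, which oxidises methylated cytosines, does to CD8 T cells in a tumour with and without checkpoint blockade. All T cells transferred carried OT-I, a transgenic receptor for an ovalbumin peptide, and came from wild-type or Tet2-/- mice, and the labels do not give the part of Tet2 that was deleted. All hosts bore B16-OVA, a mouse melanoma line that makes ovalbumin, and the tumours were sampled 8 days after transfer. Hosts of cells of either genotype were left untreated or given anti-PD-L1, an antibody that blocks a ligand of PD-1, an inhibitory receptor of T cells, which makes 4 groups. A group had a single library of 3′ single-cell RNA sequencing in droplets, so there was no replicate and no difference between groups was tested. Below, 4 values in a row are always those of wild-type untreated, treated wild-type, knockout untreated and treated knockout, treated meaning with anti-PD-L1. Wild-type and knockout name the transferred T cells of a library, also where its macrophages or melanoma cells are read. Intervals below are 95% intervals that cover counting error only. The label of the samples is CD8 cells from tumours, but each library also held other cells, and host CD8 T cells may be among those described.

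After filtering, 1277 to 2297 cells were kept per library, of which CD8 T cells numbered 1124, 1319, 1552 and 1028. Their median depths were 3750, 5432, 4413 and 6834 UMIs, a UMI being 1 counted RNA molecule, and their total depths 4852627, 8215017, 7989003 and 8040483 UMIs. CD8 T cells were recognised by the CD8 and CD3 genes, and Cd8a stood at 572 to 824 CPM (UMIs of a gene per 1000000 UMIs of those cells) in them. The wild-type untreated library stood apart: 516 of its CD8 T cells lay in cluster 2 and 419 in cluster 8, against 27 and 20, 17 and 38, and 0 and 18 in the other libraries, whose cells lay mostly in clusters 5, 9, 12, 13 and 14. Tet2 itself gave 65, 130, 184 and 144 UMIs in CD8 T cells of the 4 libraries in the order above, or 13.4, 15.8, 23.0 and 17.9 CPM. It was not lower in the libraries labelled knockout, and since these 3′ reads may lie outside the deleted part they check nothing, so the genotypes below rest on the labels. Any pair of libraries had 1 to 10 barcodes in common.

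RefSeq on GRCm38.p6 places the protein-coding gene Egr2 on chromosome 10 (67534469 to 67542188). The promoter table used here held entries for Egr2 and not for Egr1 or Egr3. One of the 5 Egr2 windows is printed, and it is among those with the most motif matches. It covers chr10:67537619-67537918 on the plus strand, 300 bases around the start site in GRCm38.p6, and capitals mark 3 matches to signal-response motifs.
Egr2: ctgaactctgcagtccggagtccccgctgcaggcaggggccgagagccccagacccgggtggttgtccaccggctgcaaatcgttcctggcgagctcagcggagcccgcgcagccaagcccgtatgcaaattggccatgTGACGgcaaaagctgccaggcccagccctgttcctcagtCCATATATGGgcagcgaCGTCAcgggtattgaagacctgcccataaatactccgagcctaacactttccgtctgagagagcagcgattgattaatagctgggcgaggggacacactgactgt
The run CCATATATGG, 72 bases before the start site, matches the CArG box, the motif that serum response factor reads. The others are TGACG, a core that CREB and ATF factors read, 111 bases before the start site and its reverse complement 55 bases before it. Both strands were searched, and no match overlapped another. Of 32851 RefSeq windows of the same length, 1.63% held a CArG box, 20.8% held TGACG and 5.55% held GCGNGGGCG, the motif that Egr proteins read. GCGNGGGCG was not found in this window. The 5 Egr2 windows differed in their matches. The window that starts at 67535249 held none, and that at 67537316 held only the CArG box match CCTTTTTTGG. The printed window thus does not stand for all 5, and the shares above are for single windows. A match is a description of the letters and not evidence of binding.

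Egr1 was the most often counted of the family in CD8 T cells, with 426 UMIs in 376 of 5023 cells, and no cell held more than 3. RefSeq on GRCm38.p6 places the protein-coding gene on chromosome 18 (34861207 to 34864956). Its UMIs numbered 29 in untreated wild-type, 165 in treated wild-type, 82 in untreated knockout and 150 in treated knockout. These made levels of 5.98 CPM (4.0 to 8.58), 20.1 CPM (17.1 to 23.4), 10.3 CPM (8.16 to 12.7) and 18.7 CPM (15.8 to 21.9). Both libraries with anti-PD-L1 lay above both untreated libraries with intervals that did not overlap, and wild-type untreated was lowest.

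The share of CD8 T cells with an Egr1 UMI was 2.22%, 10.9%, 4.90% and 12.7%. These shares rise with depth, so each cell was also thinned to 2600 UMIs, which left out 219, 77, 151 and 21 shallower cells in that order. Averaged over all ways of thinning, the shares were 1.54%, 5.10%, 2.60% and 5.62%. In both forms the treated libraries had higher shares than the untreated ones. The order of the 2 treated libraries was opposite by share and by CPM and is not read.

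Egr2 gave 173 UMIs in 150 of the 5023 CD8 T cells, at most 4 in a cell. The 4 libraries held 15, 74, 45 and 39 Egr2 UMIs, in the same order, for levels of 3.09 CPM (1.73 to 5.10), 9.01 CPM (7.07 to 11.3), 5.63 CPM (4.11 to 7.54) and 4.85 CPM (3.45 to 6.63). Wild-type with anti-PD-L1 was the highest, above wild-type untreated and knockout with anti-PD-L1 by intervals that did not overlap. The 3 lower libraries had overlapping intervals.

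Cells with an Egr2 UMI were 1.33%, 4.55%, 2.45% and 3.60% of CD8 T cells, and 0.911%, 2.33%, 1.45% and 1.47% after thinning. In melanoma cells, which served as the class with least Egr2, the untreated libraries had a thinned share of 0.168% (wild-type) and 0.408% (knockout). Their median depths were 10199 and 13918 UMIs, deeper than the CD8 T cells of the same libraries. In these untreated libraries the Egr2 share in CD8 T cells was thus above that of melanoma cells of the same library, as was its level. In a single thinning draw only 2 and 1 melanoma cells had an Egr2 UMI, and their share intervals overlapped those of CD8 T cells. The treated libraries held 59 and 50 melanoma cells, none with an Egr2 UMI, too few to compare shares. Macrophages went the other way, with thinned Egr2 shares above those of CD8 T cells, at 2.29%, 5.09%, 1.96% and 4.12%. In a single draw the share intervals of macrophages and CD8 T cells overlapped in every library.

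Egr3 was detected as 1 UMI, in a cell of cluster 14 of knockout untreated, among 29097130 UMIs of CD8 T cells. RefSeq on GRCm38.p6 places this protein-coding gene on chromosome 14 (70077317 to 70082613). The other 3 libraries held 0 of 1124, 0 of 1319 and 0 of 1028 cells, which allows shares of up to 0.267%, 0.227% and 0.292% by the floor of 3 counts. No Egr3 UMI was found in 966 macrophages or 1228 melanoma cells. At this depth Egr3 could not be compared between any groups. Egr4, the remaining family member, had 2, 6, 3 and 3 UMIs in CD8 T cells of the 4 libraries.

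**Figure D1:**
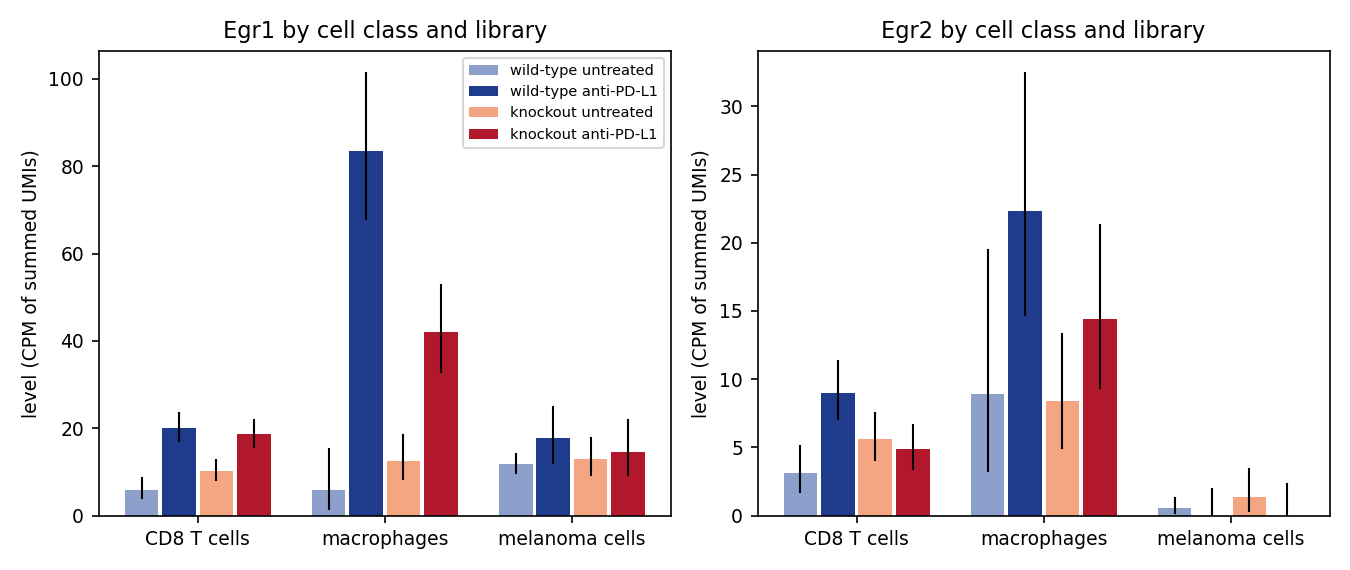
Level of Egr1 (left) and Egr2 (right) in CPM of summed UMIs for CD8 T cells, macrophages and melanoma cells, with 1 bar per library and lines for exact 95% Poisson intervals. Egr1 was highest in macrophages of wild-type with anti-PD-L1 (83.4 CPM), and Egr2 was at or near 0 in melanoma cells.

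Loss of Tet2 was compared first without treatment. Egr1 was 1.72-fold higher in the library labelled knockout than in wild-type untreated, a log2 fold of 0.78 (0.15 to 1.44), and Egr2 was 1.82-fold higher, a log2 fold of 0.87 with an interval of -0.0044 to 1.82 that includes no difference. In these values both of the 2 members whose mean level reached 2 CPM were past 1.5-fold, where 22.9% of the 9435 genes at that level were past it in either direction and 12.8% were higher. Of the genes at 20 CPM or more, above both members, only 14.8% were past it in either direction. The share among genes between 2 and 20 CPM was therefore above 22.9%, and the shares given below are likewise low for genes of the members' level. The cells compared lay in different clusters, mostly 2 and 8 in wild-type and 5, 12, 14, 13 and 9 in knockout. In cluster 1, the one cluster with 50 cells or more in both libraries, Egr1 had 4 UMIs in knockout and 5 in wild-type and Egr2 had 5 and 4, too few to compare. Leaving out cluster 2 took 516 CD8 T cells from wild-type untreated and 17 from knockout untreated. The log2 fold over the remaining CD8 T cells was then 0.42 for Egr1 and 0.34 for Egr2, under 1.5-fold. For Egr1 it was also under 1.5-fold at a cluster resolution of 2.0 (0.41) and, narrowly, in the other listing of barcodes (0.5847).

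With anti-PD-L1 the genotypes were close in Egr1 and apart in Egr2. Egr1 had a log2 fold of -0.11 (-0.44 to 0.22) between the library labelled knockout and wild-type, and 0.042 as a mean over cells, so its sign is not settled. Egr2 had a log2 fold of -0.89 (-1.49 to -0.31), so that wild-type was 1.86-fold higher. One of 2 members was thus past 1.5-fold, where 8.46% of genes at 2 CPM or more were past it in either direction and 4.19% were lower. Over the 5 clusters with 50 cells or more in both libraries, and on few UMIs in each, Egr2 was lower in knockout in 4 and higher in 1, and Egr1 was higher in 3 and lower in 2. Clusters 5, 9, 12, 13 and 14 held most of both libraries.

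Anti-PD-L1 treatment in wild-type went with higher levels of both genes. Egr1 was 3.36-fold higher than in wild-type untreated, a log2 fold of 1.75 (1.17 to 2.37), and Egr2 was 2.91-fold higher, a log2 fold of 1.54 (0.73 to 2.45). Both members were past 1.5-fold, where 35.3% of genes at 2 CPM or more were past it in either direction and 16% were higher. No cluster held 50 cells of both libraries, so the comparison was between cells of clusters 2 and 8 and cells of clusters 12, 13, 14 and 9. When cells were taken by their own CD8 and CD3 UMIs in place of clusters, the Egr1 log2 fold was 2.39.

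In knockout the same treatment went with higher Egr1 and not with higher Egr2. Egr1 was 1.82-fold higher, a log2 fold of 0.86 (0.46 to 1.27), and higher in 4 of the 5 clusters with 50 cells or more in both libraries. Egr2 had a log2 fold of -0.22 (-0.87 to 0.44), and was higher in 2 of those clusters and lower in 3. The sign of this Egr2 value was not stable, since the other listing of the barcodes gave 0.25. One of 2 members was past 1.5-fold, where 9.56% of genes at 2 CPM or more were past it in either direction and 5.94% were higher. Whether Egr2 responded differently in the genotypes was not tested, and the genotype and treatment comparisons share libraries.

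**Figure D2:**
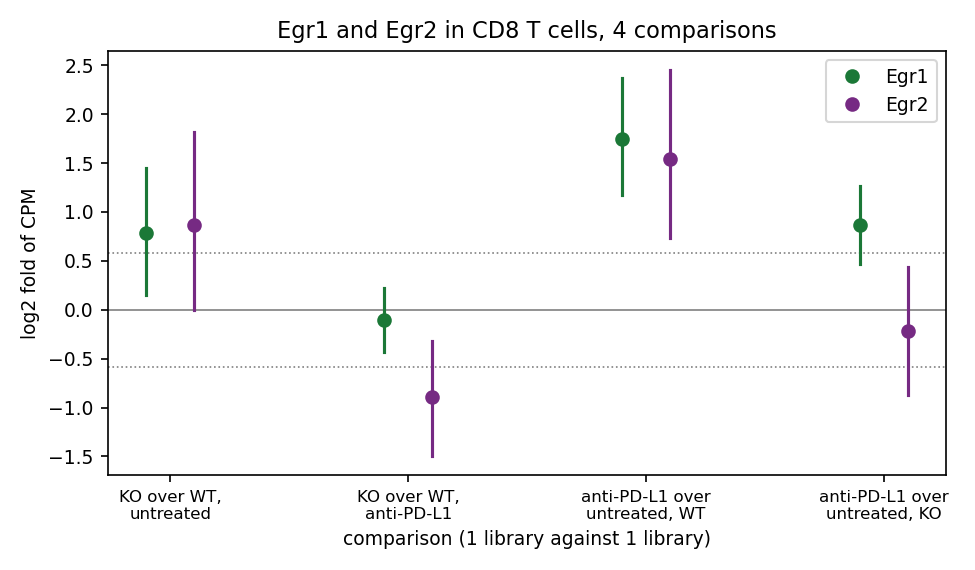
Log2 fold of Egr1 (green) and Egr2 (purple) in CD8 T cells in each of the 4 comparisons of 1 library with another, with exact conditional 95% intervals as lines and 1.5-fold as dotted lines; KO is Tet2 knockout and WT wild-type. Egr1 was near 0 and Egr2 below 0 between the genotypes under anti-PD-L1.

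The balance of the pair can be read without a library scale. Egr2 made up 34.1% (20.5 to 49.9) of the summed Egr1 and Egr2 UMIs in CD8 T cells of wild-type untreated. It made up 31.0% (25.2 to 37.2) in wild-type with anti-PD-L1 and 35.4% (27.2 to 44.4) in knockout untreated. In knockout with anti-PD-L1 it made up 20.6% (15.1 to 27.1), the lowest of the 4, with an interval that overlapped those of both wild-type libraries and lay just below that of knockout untreated.

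Levels differed between clusters of CD8 T cells more than between some libraries, and since the Egr genes were among the variable genes used to form the clusters these levels are descriptive. Cluster 13, led by the chemokine genes Ccl4, Xcl1, Ccl3 and Ccl1, the granzyme gene Gzma and Ifng, had the highest level of both over the pooled libraries, 27.2 CPM for Egr1 (22.3 to 32.9) and 16.1 CPM for Egr2 (12.4 to 20.6). Within each of the 3 libraries with 50 or more cells there it was also highest in Egr2 CPM among clusters of that size. In untreated knockout this rests on 7 UMIs (9.05 CPM) against 8 in cluster 14 (8.03 CPM), with overlapping intervals. The thinned share there was higher in cluster 14 (3.1% against 2.3%). In Egr1 cluster 13 was highest in treated wild-type and untreated knockout, whereas in treated knockout cluster 14 (31.7 CPM) stood beside it (31.4 CPM). Cluster 2, led by Dapl1 and globin genes, had 4.97 CPM of Egr1 and 3.19 CPM of Egr2, but 516 of its 560 cells are of wild-type untreated, as are 419 of the 495 of cluster 8, so cluster and library cannot be told apart there. Cluster 12, led by Gm156, Ctla2a and Cxcr6, split the pair, with 15.8 CPM of Egr1 and 2.63 CPM of Egr2, the latter as low as in cluster 8 (2.61 CPM).

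Cluster 14, with the naive and progenitor cell genes Ccr7, Tcf7 and Slamf6 among its leading ones, had 18.6 CPM of Egr1 and 6.89 CPM of Egr2, and cluster 9, led by cell cycle genes, had 17.3 and 5.18 CPM. Cluster 13 held 41 of the 74 Egr2 UMIs of treated wild-type and 16 of the 39 of treated knockout. Its Egr2 level was 24.2 CPM (17.4 to 32.9) in wild-type with anti-PD-L1, over 361 cells. In knockout with anti-PD-L1 it was 10.7 CPM (6.11 to 17.4), over 263 cells, and in knockout untreated 9.05 CPM (3.64 to 18.6), from 7 UMIs in 202 cells. Egr1 in the same cluster was at 28.4, 31.4 and 16.8 CPM, so the treated libraries were alike in Egr1 there and not in Egr2.

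**Figure D3:**
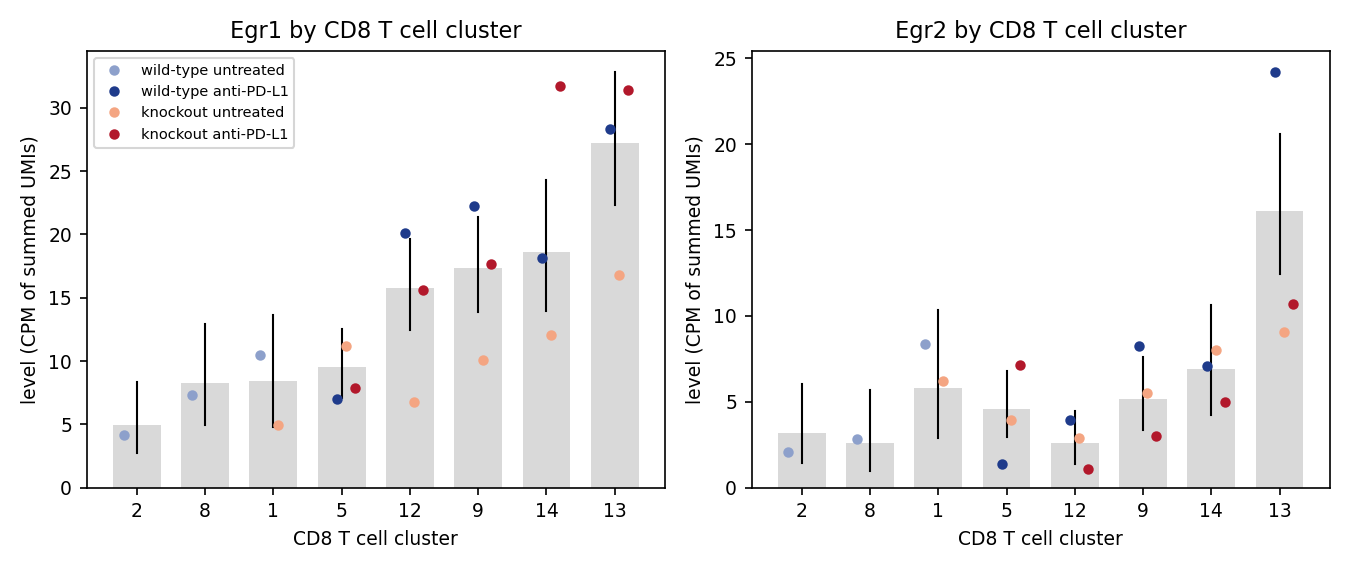
Level of Egr1 (left) and Egr2 (right) in CPM of summed UMIs for the 8 CD8 T cell clusters, ordered by Egr1. Grey bars are all libraries together with exact 95% Poisson intervals, points are single libraries with at least 50 cells in the cluster, and cluster 13 was highest in both genes over the pooled libraries, though not in Egr1 of knockout with anti-PD-L1.

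Macrophages, recognised by complement genes, held more Egr RNA per UMI than CD8 T cells in the treated libraries. The library labels give the genotype of the transferred T cells and not that of the macrophages. Their Egr1 UMIs numbered 4, 101, 27 and 73, with both high counts in treated libraries, for levels of 5.97, 83.4, 12.6 and 42.1 CPM. The treated libraries were higher by a log2 fold of 3.81 (at 4 UMIs in the lower library) in wild-type and 1.74 in knockout. Egr2 in macrophages was at 8.95, 22.3, 8.42 and 14.4 CPM, from 6, 27, 18 and 25 UMIs, and its higher values were again those of the treated libraries. Macrophages of treated knockout were below those of treated wild-type by a log2 fold of -0.99 (-1.44 to -0.54) in Egr1. In Egr2 it was -0.63 (-1.48 to 0.21). Whether this bears on the Egr2 difference in CD8 T cells of these libraries was not tested. Against macrophages of the same library, CD8 T cells had a lower Egr1 level by a log2 fold of -2.05 (-2.42 to -1.68) in wild-type with anti-PD-L1 and -1.17 (-1.59 to -0.75) in knockout with anti-PD-L1. In the untreated libraries the intervals of that difference included 0. Egr2 was also lower in CD8 T cells than in macrophages, by log2 folds of -1.53, -1.31, -0.58 and -1.57. Its intervals lay below 0 in the treated libraries (-1.96 to -0.62 in wild-type and -2.33 to -0.79 in knockout) and included 0 in the untreated ones.

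Markers of other cells were read beside these levels. Cd3e stood at 29.4 to 55.2 CPM in macrophages against 449 to 693 CPM in CD8 T cells, doublets were not removed, and the part of T cell RNA in the macrophage Egr levels was not tested. C1qa stood at 4.14 to 6.59 CPM in CD8 T cells against 3971 to 6877 CPM in macrophages. The summed macrophage markers, of which 5 to 8 of 8 were detected, were at 46.8, 36.9, 35.3 and 33.2 CPM in CD8 T cells of the 4 libraries. Summed melanoma markers were at 95, 20.7, 27.7 and 15.3 CPM and globin genes at 140, 658, 482 and 276 CPM. The 4 monocyte markers, among them Ly6c2, which CD8 T cells also express, summed to 1066, 3015, 1774 and 2349 CPM, higher in the treated libraries as Egr1 was. The dendritic cell markers, of which 2 to 5 of 7 were detected and which include Ccr7, a gene of T cells too, summed to 229, 546, 457 and 353 CPM. The part of these cells in the Egr differences was not tested.

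Melanoma cells, recognised by pigment cell genes, had Egr1 with almost no Egr2. Their Egr1 levels were 11.9, 17.7, 13.1 and 14.6 CPM, from 121, 33, 39 and 23 UMIs, and the intervals of all 4 libraries overlapped. Their Egr2 UMIs numbered 6, 0, 4 and 0. Egr2 was thus 4.72% and 9.30% of the summed pair in the untreated libraries, and 0 of 33 (0% to 10.6%) and 0 of 23 (0% to 14.8%) in the treated ones. CD8 T cells had a higher Egr2 level than melanoma cells by a log2 fold of 2.39 (0.95 to 4.05) in wild-type untreated and 2.07 (0.62 to 4.01) in knockout untreated, and were at least 5.61-fold and at least 2.56-fold higher in wild-type and knockout with anti-PD-L1, against a floor of 3 UMIs per library (lower interval limits of 2.15 and 0.99 on the log2 scale).

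Co-expression was read as cells with a UMI of both genes. Among CD8 T cells, 3 of 1124, 12 of 1319, 2 of 1552 and 6 of 1028 held both Egr1 and Egr2, where 0.334, 6.55, 1.86 and 4.71 cells would hold both if the genes were independent within each library. The sum was 23 against 13.5, a ratio of 1.71, and 1.61 when the expected number was taken within clusters. After thinning the sum was 6 against 2.97, a ratio of 2.02. With thinning to 1500 UMIs the ratio was 0.863, on 1 observed cell, so its direction is not settled. Where found, the excess was of a few cells. Cells with an Egr1 UMI were also deeper. Their median depths were 4242 against 3740 UMIs in wild-type untreated and 7457 against 6748 in knockout with anti-PD-L1.

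Of CD8 T cells with an Egr1 UMI, 12%, 8.33%, 2.63% and 4.58% had an Egr2 UMI, against 1.09%, 4.08%, 2.44% and 3.46% of those without. The knockout libraries were near independence (ratios of 1.07 and 1.27) and the wild-type ones were higher (8.99 and 1.83), a difference that was not tested and that rests on 3 cells in wild-type untreated. In macrophages 23 cells held both genes against 11.6 expected, a ratio of 1.99 at full depth. In melanoma cells 4 held both against 0.825 expected at full depth, and 0 against 0.103 expected after thinning. No cell of any class held Egr3 with another member.

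The genes around the Egr factors were read from lists in the same CD8 T cells. The lists were chosen with earlier results of these data known, so the counts below beside all genes are descriptions. Regulators come first. Of 8 regulators and partners, 4 reached a mean of 20 CPM: the co-repressors Nab1 and Nab2 and the serum response factor partners Elk3 and Elk4. None of the 4 was past 1.5-fold in either genotype comparison or with treatment in wild-type, where 14.8%, 2.57% and 31.9% of 4629 genes at that level were past it in either direction. With treatment in knockout 1 was, against 4.04% of genes, and it was Nab2, at 28.2 CPM in knockout untreated and 48.0 CPM in knockout with anti-PD-L1, a log2 fold of 0.77. Srf, the gene of serum response factor, is below the floor, at 20.4, 11.6, 15.5 and 12.2 CPM, and its log2 fold with treatment in wild-type was -0.82. Nab2, itself a known target of Egr factors, was at 39.1 and 46.1 CPM in the wild-type libraries.

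None of the 9 signalling genes at 20 CPM or more between the antigen receptor and the Egr genes, of 14 listed, was past 1.5-fold in any comparison, against the shares of all genes just given. They include the kinase gene Map2k1, the calcineurin subunit gene Ppp3cb and the transcription factor gene Nfatc1. Nfatc1 was at 40.4, 42.6, 41.2 and 52.2 CPM. The floor leaves out 5 members, as it would Egr1, and among them the feedback inhibitor genes Spry1 and Spry2 were past 1.5-fold. Spry1 was at 6.18, 13.6, 15.1 and 14.4 CPM, and Spry2 at 11.3, 24.7, 11.4 and 14.9 CPM.

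Other early genes induced by receptor signalling moved as a group. Of 25 at 20 CPM or more, of 27 listed, 21 were past 1.5-fold higher in untreated knockout over wild-type and none lower, with a median log2 fold of 1.47 beside -0.10 for all 4629 genes, of which 7.93% were higher. With treatment in wild-type 22 were higher and none lower, with a median of 1.68 beside -0.18 and 11.3% of all genes higher. Between genotypes under anti-PD-L1 none was past 1.5-fold (median -0.14 beside 0.09), and with treatment in knockout 3 were higher (median 0.27 beside -0.01, and 2.92% of all genes higher). The 4 with most UMIs were the AP-1 gene Junb, the NF-κB inhibitor gene Nfkbia, Tnfrsf9, a gene of a co-stimulatory receptor, and the phosphatase gene Dusp2. Junb was at 440, 1966, 1667 and 1874 CPM, low in wild-type untreated alone.

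Egr1 and Egr2 lay within this group in both comparisons with wild-type untreated, and Egr2 lay at or below its edge in the others. With treatment in wild-type, 10 of the 25 early genes had a larger log2 fold than Egr1 and 14 a larger one than Egr2. In untreated knockout over wild-type 19 and 17 did. Between genotypes under anti-PD-L1 the early genes ranged from -0.54 to 0.51, and all 25 lay above Egr2 (-0.89), whereas Egr1 lay among them. With treatment in knockout 2 of 25 lay above Egr1 (0.86) and 24 of 25 lay above Egr2 (-0.22). Egr2 is the less counted gene, and its intervals of -1.49 to -0.31 and -0.87 to 0.44 reach into the ranges of the early genes.

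**Figure D4:**
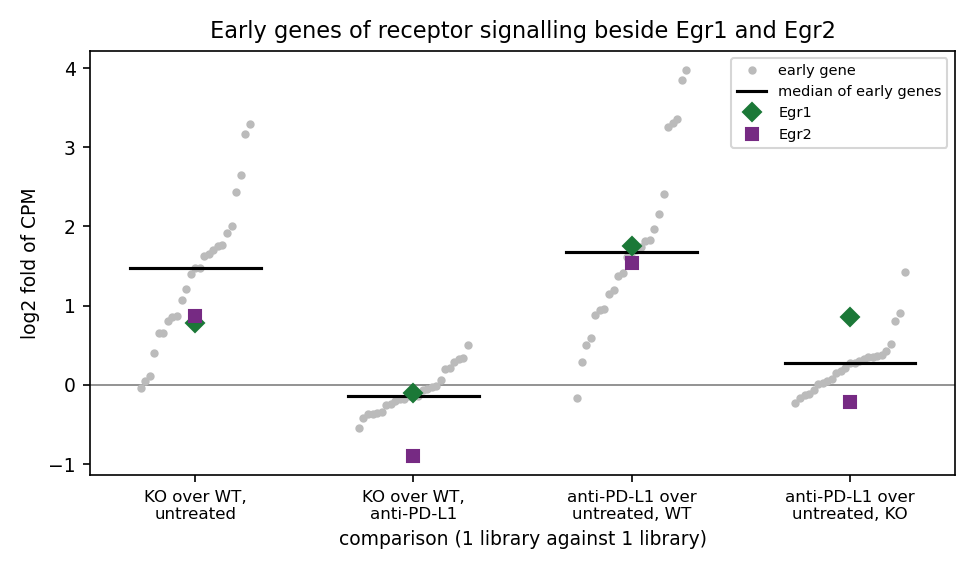
Log2 fold in CD8 T cells of the 25 early genes at 20 CPM or more (grey points in order of size, black line at their median) with Egr1 (diamond) and Egr2 (square) in the 4 comparisons; KO is Tet2 knockout and WT wild-type. Egr2 lay below all 25 early genes between genotypes under anti-PD-L1.

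Genes reported as targets of Egr2 or Egr3 in T cells were mixed. Of 15 at 20 CPM or more, of 18 listed, 6 were past 1.5-fold higher and 1 lower in untreated knockout over wild-type, and 8 higher and 1 lower with treatment in wild-type, where 14.8% and 31.9% of all genes were past it either way. With treatment in knockout 3 were higher and 1 lower beside 4.04% of all genes, and between genotypes under anti-PD-L1 none was past it beside 2.57%. The 4 with most UMIs were Tnfrsf9, the inhibitory receptor gene Lag3, the GPI-anchored protein gene Nrn1 and the ubiquitin ligase gene Cblb. Lag3 was at 252, 455, 357 and 475 CPM, with the same low library as the early genes. The list has Tnfrsf9 in common with the early genes and Nab2 in common with the regulators, so the counts are not independent.

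Genes that respond to tissue handling or heat moved both ways. Of 11 at 20 CPM or more, of 13 listed, 3 were past 1.5-fold higher and 2 lower in each comparison that used wild-type untreated as its base, and 1 higher and none lower in each of the other comparisons. The shares of all genes past it either way were 14.8% and 31.9% in the former and 2.57% and 4.04% in the latter. Members of the list differed in their order over libraries. Hspa1a, a heat shock chaperone gene, was at 147, 42.2, 76.1 and 145 CPM, an order unlike that of either Egr gene. Fos was at 23.9, 84.2, 50.3 and 65.0 CPM, higher in the treated libraries and lowest in wild-type untreated, as Egr1 was. Fos, Jun, Ier3 and Zfp36 are also on the list of early genes and Socs3 on that of reported targets, and handling was not tested as a source of Egr RNA.

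The genes most alike Egr2 across single CD8 T cells were found by co-detection after thinning, among 3914 genes with a UMI in at least 5% of cells in every library. The measure is the log2 odds ratio, averaged over the 4 libraries, and it rests on 8, 29, 21 and 16 cells with an Egr2 UMI. Crtam, a surface molecule gene of activated cytotoxic T cells, led at 2.51, with a lowest library of 1.61 and a highest of 3.55. Of cells with Egr2, 25%, 51.7%, 42.9% and 62.5% had a Crtam UMI, against 11.1%, 16.4%, 12.3% and 12.1% of those without. The higher share was found in all 4 libraries, and the mean was 1.90 without thinning, 1.86 with another draw and 2.24 in the other listing of barcodes. With that other draw Ccl3 (1.91) and Ccl4 (1.88) stood above Crtam, so its first place is not settled.

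Next came the chemokine genes Ccl3 at 2.06 (1.23 to 2.66 over libraries) and Xcl1 at 1.67 (0.72 to 2.30), the chaperone gene Hsph1 at 1.62 (0.83 to 2.28), Ccl4 at 1.59 (-0.43 to 3.02) and the nuclear receptor gene Nr4a2 at 1.59 (0.48 to 4.07). Timm10 followed at 1.53 and the MAP kinase kinase gene Map2k3 at 1.53. In the other listing Hsph1 was at 0.07 and Ccl3 at 1.01, so the order of these genes also depends on which listing is read. Crtam is also on the list of reported targets, and Ccl3, Xcl1 and Ccl4 lead cluster 13.

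For Egr1 the measure rests on 14, 63, 29 and 59 cells. The leading genes were Bloc1s6 at 1.33 (0.48 to 2.09), Arhgdia at 1.32 (-0.11 to 3.63), Fos at 1.29 (0.75 to 1.86) and Dusp2 at 1.14 (0.27 to 2.32), followed by Mkrn2, Mdm4, Rab3ip and 2810474O19Rik at 1.10 to 1.13. Fos, a subunit of AP-1 that serum response factor also controls, was found in 14.3%, 23.8%, 24.1% and 18.6% of cells with Egr1 and in 5.16%, 13.7%, 10.3% and 12.3% of those without. In the other listing Mkrn2, Mdm4 and Rab3ip were below 0, so those 3 are not read as alike. The others were lower under every alternative: Bloc1s6 was at 0.24 without thinning, Arhgdia at 0.19 and Fos at 0.53 in the other listing, and Dusp2 at 0.74 with another draw. Crtam stood at 0.31 with Egr1, and at 0.37 to 0.75 under the alternatives.

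**Figure D5:**
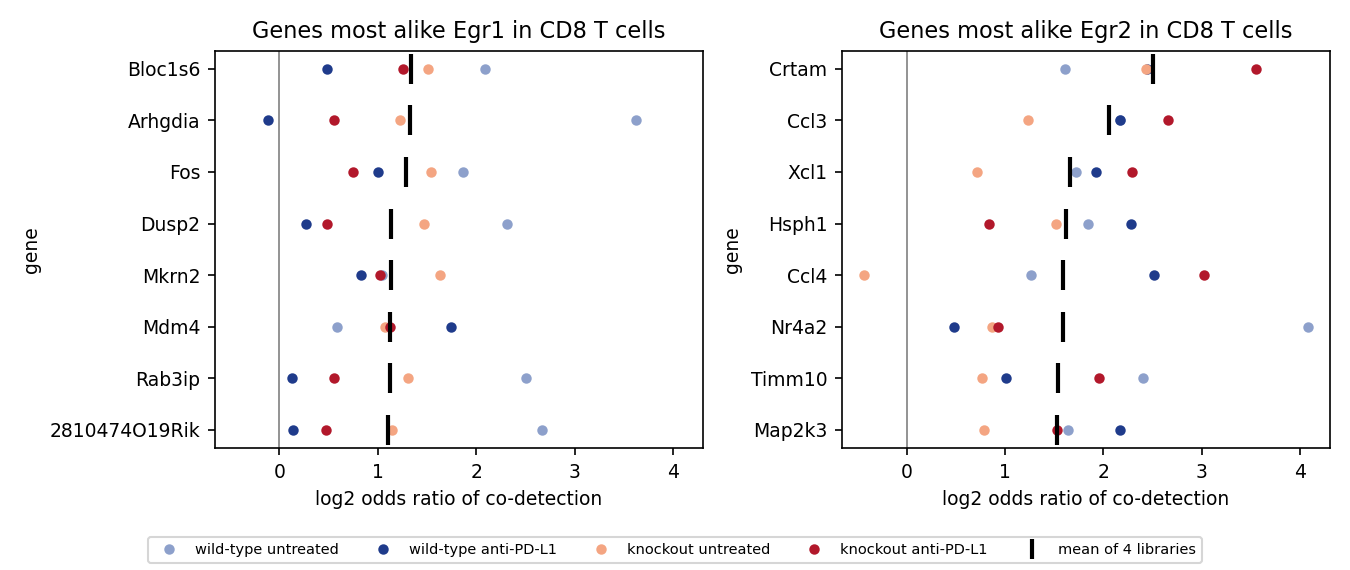
Log2 odds ratio of co-detection with Egr1 (left) and Egr2 (right) for the 8 genes with the highest mean, in CD8 T cells thinned to 2600 UMIs, with 1 point per library and a black bar at the mean. Crtam was at 1.61 or more with Egr2 in each library, whereas Ccl4 was below 0 in knockout untreated.

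By list, 9 of 17 early genes measured had an odds ratio above 1 with Egr1 in all 4 libraries, and 9 of 17 with Egr2, where 7.84% and 9.73% of all 3914 genes did. The median log2 odds ratio of the early genes was 0.55 with Egr1 and 0.64 with Egr2, beside -0.02 and 0.03 for all genes. Of 4 cytokine genes measured, 3 were above 1 in every library with each factor, and their median was 0.44 with Egr1 and 1.63 with Egr2. None of 4 cell cycle genes was, too few genes to set apart from the share of all genes, with medians of -0.27 and -0.67. Of 7 handling and heat shock genes, among them the early genes Fos and Jun, 2 were with Egr1 and 3 with Egr2. Their medians were 0.26 and 0.37. Of 6 progenitor genes 0 were with Egr1 and 1 with Egr2, with medians of -0.07 and 0.45. Every other list had 2 such genes at most with either factor. These counts describe co-detection within libraries, where cells of 1 library share depth and handling. They also include the 0.5 added to each cell of the table, which lifts some sparse odds ratios above 1. In treated wild-type, Ifng was found in 22.2% of cells with Egr1 and 22.4% of those without. In untreated wild-type, Nr4a1 was found in 0 of 8 cells with Egr2 and 5.46% of those without. Both were counted as above 1.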

How the data were processed

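The members and all gene lists were chosen with earlier results of these data known. The authors deposited, per library, a table of raw UMI counts per barcode and gene, made with a 10x Chromium 3′ kit per the labels' protocols. The submitters' processing notes name the build mm10 and, among other tools, HTSeq and Trim Galore 0.5.0, with no word on which of them made these tables. The counting tool and the way cells were called is not given in the sources used here. Each table lists most barcodes in 2 listings with differing counts. The listing with 2 hyphens in the barcode was used (2384, 1680, 2312 and 1346 barcodes), and nothing states which of them the authors used. Of barcodes with Egr1 in either listing, 57 of 152 in wild-type untreated and 152 of 207 in knockout with anti-PD-L1 had it in both. For Egr2 these were 7 of 34, 55 of 101, 39 of 79 and 51 of 72 in the 4 libraries. Which cell holds an Egr UMI thus depends on the listing, most of all for Egr2 in wild-type untreated.

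Cells needed 500 or more genes and no more than 10% mitochondrial UMIs, and doublets were not removed. Cells were clustered with scanpy 1.11.5 and igraph 0.11.9 (Leiden, resolution 1.0, 2000 variable genes without receptor segments, 30 components, 15 neighbours). CD8 T clusters had mean CD8 and CD3 levels of at least 0.5 times the highest cluster. Macrophage and melanoma clusters had at least 3 markers among their top 20 genes by fold, with a pseudocount of 0.5 chosen after the clusters were seen. UMIs were summed by library and class and scaled to CPM, with exact Poisson intervals. Folds have exact conditional binomial intervals and shares exact Clopper-Pearson ones (scipy 1.17.1, numpy 2.4.6), and a count of 0 was set to 3. A gene counted as higher or lower past 1.5-fold with a mean of at least 20 CPM. Egr1 and Egr2 lie below that floor, at 13.7 and 5.65 CPM, so a floor of 2 CPM was added after seeing the data. Odds ratios had 0.5 added to each cell of the table. Named genes are the members, the 4 of a list with most UMIs, any past 1.5-fold that a sentence turns on, and the 8 most alike each Egr gene; 1 gene that this rule names is not reported here. The fold, interval and co-detection code was tested on simulated data. TMM factors came from edgeR 4.0.16. The RNA and ATAC samples of the series were not analysed here.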

Additional observations from a re-analysis of the deposited data

Results flagged for a closer look

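The genotype difference in Egr1 had opposite signs without and with treatment in CD8 T cells, with log2 folds of 0.78 and -0.11, the latter of unsettled sign (0.042 as a mean over cells), and so did that in Egr2, with 0.87 and -0.89. The treatment difference in Egr2 also had opposite signs in wild-type and knockout, at 1.54 and -0.22, the latter again of unsettled sign (0.25 in the other listing). With 1 library per group none of these differences between differences was tested, and each of them involves the wild-type untreated library, whose cells lay in clusters of their own.

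Outside the classes compared, cluster 11, 27 cells led by the fibroblast genes Dcn, Col3a1 and Col1a2, had an Egr1 level of 523 CPM (438 to 619), from 135 UMIs in 21 of its cells. Its Egr2 level was 27.1 CPM (10.9 to 55.8), from 7 UMIs in 3 cells. In CD8 T cells the 4 fibroblast markers summed to 0.412 to 1.5 CPM.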

How the results depend on the processing

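Over 80 alternative values of the Egr1 and Egr2 folds in CD8 T cells, 79 moved by less than their counting interval and 1 by more, the Egr1 log2 fold with treatment in wild-type, which was 2.39 when cells were gated on their own markers. The difference in Egr2 between genotypes under anti-PD-L1 ran from -1.02 to -0.65, and the treatment differences in wild-type from 1.39 to 2.39 for Egr1 and 1.20 to 1.93 for Egr2. The untreated genotype difference was under 1.5-fold at resolution 2.0 (Egr1 0.41), in the other listing (Egr1 0.5847) and without cluster 2 (Egr1 0.42 and Egr2 0.34), an alternative chosen after seeing the data. The cause was not tested. Co-detection of Egr1 and Egr2 over its expectation ran from 0.863 with thinning to 1500 UMIs to 2.17 with gating, so its direction is not settled. Of 57 odds ratios recomputed, 44 kept within the range of the libraries, 10 did not, and 3 changed sign in the other listing: Mkrn2 (-0.35), Mdm4 (-0.67) and Rab3ip (-0.081) with Egr1.

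The counts of genes past 1.5-fold, in the order of untreated genotype, treated genotype, wild-type treatment and knockout treatment, were 686, 119, 1477 and 187. They were 5562, 3738, 6765 and 3903 without a floor, 326, 41, 820 and 94 with a floor of 50 CPM, and 2163, 798, 3329 and 902 with a floor of 2 CPM. TMM scaling shifted wild-type treatment folds by 0.13 and moved the split of higher against lower genes from 367 and 319 to 436 and 217, from 50 and 69 to 28 and 84, and from 525 and 952 to 691 and 622 in the first 3 comparisons. No paired analysis was possible because each group was 1 library. Depth limits Egr3 and every value per cluster.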
